A study of Mus musculus with 2 samples.

Results

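Mmp8 Ccl9 macrophages were followed in sections of mouse tumours measured by Xenium In Situ, which decodes single RNA molecules in tissue and assigns them to segmented cells. A cell was taken when it held 40 or more counts over the panel genes, at least 1 count of Mmp8, at least 3 of Ccl9 and at least 1 of Cd68 plus Cybb. Cells with 2 or more of the genes Folr2, Cd209a, Retnla, F13a1 and Lyve1 detected, with any count of Csf3r or Cxcr2, or with more than 1 count of Epcam were left out. This found 719 of 161996 cells with 40 or more counts in the EKP section and 2356 of 235115 in the RKP section. The rule was set on measured counts, so the 12 genes it uses are described here and support nothing.

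The series compared tumours of the cultured mouse lines EKP and RKP, under a title on diffuse gastric cancer and a mutant RHOA. Tumours grew beneath the skin after cells of a line in Matrigel had been injected at both flanks of C57BL/6 mice 5 weeks old, and EKP and RKP tissue shared 1 paraffin block and 1 slide. The labels spell out neither name and tie the RHOA mutant to neither line, and Rhoa is not on the panel, so no value here checks the lines. There was 1 section per line and the number of mice is not given, so differences between EKP and RKP describe those sections, no test was possible, and every interval in parentheses is a 95% interval of counting error.

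The panel held 479 genes, 379 of a base panel and 100 added. Median depth was 165 counts in both sections among cells with 40 or more counts, but 38.0% of EKP cells and 8.07% of RKP cells lay below that minimum. Negative control probes, which match no transcript, summed to 14.4 and 13.9 counts per 1000000 panel counts (CPM) in the Mmp8 Ccl9 macrophages. The sections shared 19 cell barcodes, 0 of them among these macrophages. Epithelial cells, taken as those with 5 or more Epcam counts, were 26.4% of the EKP cells and 31.1% of the RKP cells.

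Macrophages are phagocytes that develop from monocytes or from resident precursors, and in tumours they take on programmes ranging from tissue repair to inflammation. Mmp8 encodes a collagenase best known from neutrophil granules, and Ccl9 a mouse chemokine that attracts cells bearing Ccr1. Atp6v0d2 encodes a subunit of the proton pump that acidifies lysosomes and takes part in the fusion of osteoclasts and macrophages. Arg1 encodes the arginase of alternatively activated macrophages, which turns arginine into ornithine and urea.

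The upstream sequences of Mmp8 and Ccl9, whose counts define the cells, and of Rsad2, an interferon-induced antiviral gene whose counts were gathered in few cells, are shown as the 250 bases before the start of each gene in RefSeq on build GRCm38.p6. Capitals mark matches to an ETS motif, GAGGAAGT, an AP-1 motif, TGANTCA, or the interferon-stimulated response element (ISRE), on either strand.
Mmp8, chr9:7558179-7558428, plus strand: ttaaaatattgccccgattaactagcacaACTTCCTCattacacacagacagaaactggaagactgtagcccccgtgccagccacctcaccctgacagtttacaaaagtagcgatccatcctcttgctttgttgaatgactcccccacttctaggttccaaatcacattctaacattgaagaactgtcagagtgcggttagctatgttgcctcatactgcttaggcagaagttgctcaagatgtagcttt
Ccl9, chr11:83578637-83578886, minus strand: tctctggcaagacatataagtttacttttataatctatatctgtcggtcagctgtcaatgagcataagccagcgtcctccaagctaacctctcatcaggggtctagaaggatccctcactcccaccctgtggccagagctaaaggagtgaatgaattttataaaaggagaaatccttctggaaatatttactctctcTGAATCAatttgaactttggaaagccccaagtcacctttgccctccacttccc
Rsad2, chr12:26456453-26456702, minus strand: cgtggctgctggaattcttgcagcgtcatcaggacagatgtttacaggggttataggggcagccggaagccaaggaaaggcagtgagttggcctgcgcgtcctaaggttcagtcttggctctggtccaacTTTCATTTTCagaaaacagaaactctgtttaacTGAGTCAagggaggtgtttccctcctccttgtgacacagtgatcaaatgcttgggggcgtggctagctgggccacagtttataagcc
The Mmp8 sequence held 1 ETS match beginning at base -221 from the start. The Ccl9 sequence held an AP-1 match at -53. The Rsad2 sequence held an ISRE match at -120 and an AP-1 match at -87, which do not overlap. Of 32851 upstream sequences of this length, 2.44% held the ETS motif, 6.75% the AP-1 motif and 2.98% the ISRE. A STAT motif, TTCNNNGAA, the STAT6 motif, an E-box, CACGTG, and an M-box, TCATGTG, were searched as well and their letters are not in these windows. A match describes letters, not binding. Atp6v0d2 and Arg1 are named without sequence.

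Most of the macrophages stood at the edge of the rule for Mmp8. A single Mmp8 count was all that 71.6% of EKP and 69.7% of RKP cells held, and 5.70% and 5.43% held 4 or more. Ccl9 was further from its limit of 3, with a median of 6 counts in EKP and 8 in RKP. No Epcam was found in 83.0% of EKP and 67.6% of RKP cells, and the rest had the 1 count allowed. Just outside the rule lay 162 EKP and 239 RKP cells with 2 counts of Ccl9, and 185 and 533 with 1 count of Csf3r or Cxcr2. A further 49 and 403 cells held 2 counts of Epcam, 106 and 216 held 2 of the resident genes, and 71 and 124 lacked both Cd68 and Cybb.

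Macrophage genes that the rule did not use were abundant in these cells. Ctss, a lysosomal protease of antigen-presenting cells, had the most counts of any panel gene, at 86244 CPM in EKP and 95263 CPM in RKP, against 7647 and 13595 CPM in epithelial cells. Mpeg1, the pore-forming perforin-2 of phagocytes, stood at 30188 and 32444 CPM against 2328 and 3557 CPM there. Arg1 stood at 43682 CPM in EKP and 56242 CPM in RKP, and was missing from 19.6% of EKP cells and 2.04% of RKP cells. Atp6v0d2 stood at 11637 and 7215 CPM and was missing from 48.4% and 47.5% of cells, so by this marker the cells were uneven. Markers of other cells were present as well. Col1a1, a fibrillar collagen of fibroblasts, reached 37347 and 22428 CPM, and Krt8, an epithelial keratin, had a count in 31.6% and 51.0% of cells. Cd3d, of the T cell receptor complex, had 0 counts in EKP, and the T and NK cell list summed to 282 CPM in EKP and 791 CPM in RKP.

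Mmp8 Ccl9 macrophages made up a larger share of the RKP section. They were 0.444% of EKP cells with 40 or more counts (0.412% to 0.477%) and 1.00% of RKP cells (0.962% to 1.04%), a ratio of 2.26 (2.08 to 2.46). Cells that met the rule with Mmp8 not asked for were 4.25% of EKP and 8.53% of RKP cells, a ratio of 2.01 (1.95 to 2.06). Among them, 10.5% in EKP (9.74% to 11.2%) and 11.7% in RKP (11.3% to 12.2%) held Mmp8, a ratio of 1.12 (1.03 to 1.22) that is not matched for depth. The RKP over EKP ratio of shares was 0.586 for resident-like macrophages and 0.850 for neutrophil-like cells, both defined further on. With all cells of a section as the denominator, the ratio for Mmp8 Ccl9 macrophages was 3.35.

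Cell coordinates were not used, and the order of barcodes, divided into 10 successive blocks, served as a rough stand-in for place. Whether that order follows the tissue was not tested, and blocks of 1 section are not replicates. The share ran from 0.269% to 0.934% over the EKP blocks, with a median of 0.414%, and from 0.581% to 1.4% over the RKP blocks, with a median of 1.09%. The ranges overlapped, and block 5 of EKP lay above 4 of the RKP blocks. Detection of Mmp8 also rose with depth, from 4.49% of the Ccl9-selected EKP cells with 40 to 79 counts to 13.6% of those with 320 or more, and from 5.91% to 18.7% in RKP. At 80 to 159 counts it was 8.96% in EKP (7.89% to 10.1%) and 8.27% in RKP (7.63% to 8.95%). At 160 to 319 counts it was 12.9% in EKP (11.7% to 14.1%) and 13.9% in RKP (13.2% to 14.6%). Median depth of the macrophages was 183 counts in EKP and 205 in RKP.

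**Figure D1:**
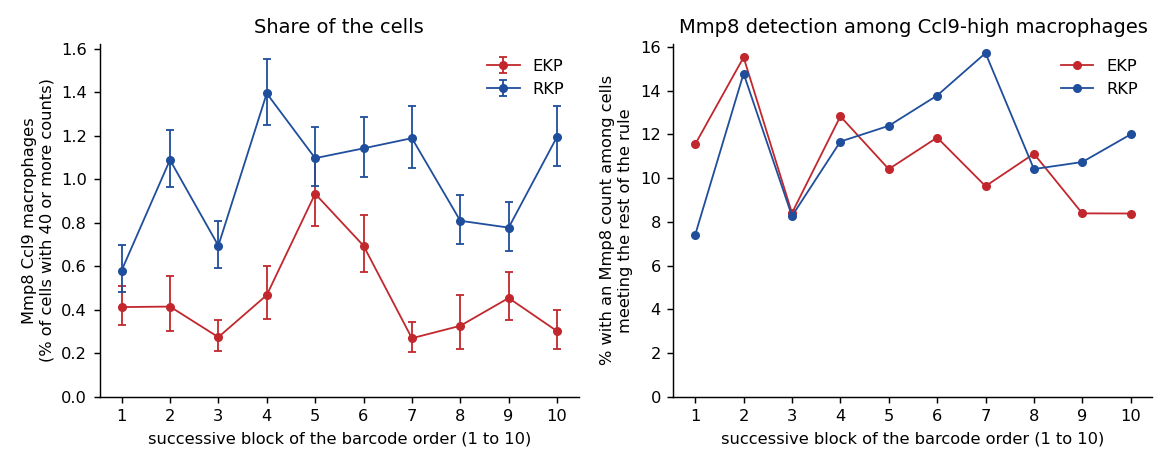
Share of Mmp8 Ccl9 macrophages among cells with 40 or more counts (left, percent, with 95% counting intervals) and share of the cells meeting the rest of the rule that held Mmp8 (right, percent), in 10 successive blocks of the barcode order of the EKP and RKP sections. On the left EKP blocks ran from 0.269% to 0.934% and RKP blocks from 0.581% to 1.4%, and on the right from 8.38% to 15.5% and from 7.41% to 15.7%.

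These cells were not the only holders of Mmp8. They held 13.5% of the 8139 Mmp8 counts of the EKP section and 28.4% of the 12955 of the RKP section, and neutrophil-like cells held 11.3% and 7.41%. The Mmp8 level was 698 CPM in EKP and 563 CPM in RKP in neutrophil-like cells, and 342 and 662 CPM in resident-like macrophages with Mmp8 allowed, against 45.2 and 113 CPM in epithelial cells.

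Mmp8 detection and several myeloid genes rose with the Ccl9 count of the cell. In cells that met the rest of the rule, with neither Mmp8 nor Ccl9 asked for, the share with Mmp8 went from 3.27 to 16.0% between 0 and 13 or more counts of Ccl9 in EKP and from 1.96 to 24.4% in RKP. Over the same steps Atp6v0d2 rose from 1151 to 19788 CPM in EKP and from 701 to 9708 CPM in RKP. Bst1, a surface enzyme of myeloid cells that consumes NAD, rose from 1216 to 10758 CPM in EKP and from 1061 to 6846 CPM in RKP. Itgam, the CD11b integrin chain, rose from 2870.3 to 16167 CPM in EKP and from 2219 to 11288 CPM in RKP. Arg1 rose from 13539 to 42137 CPM in EKP and from 13884 to 57395 CPM in RKP. These 4 genes rose at each of the steps in both sections, and Krt8 fell at each, from 10300.5 to 2842 CPM in EKP and from 13897 to 4352 CPM in RKP. Median depth went from 149 to 213 counts in EKP and from 136 to 239 counts in RKP, and its part in these slopes was not tested.

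**Figure D2:**
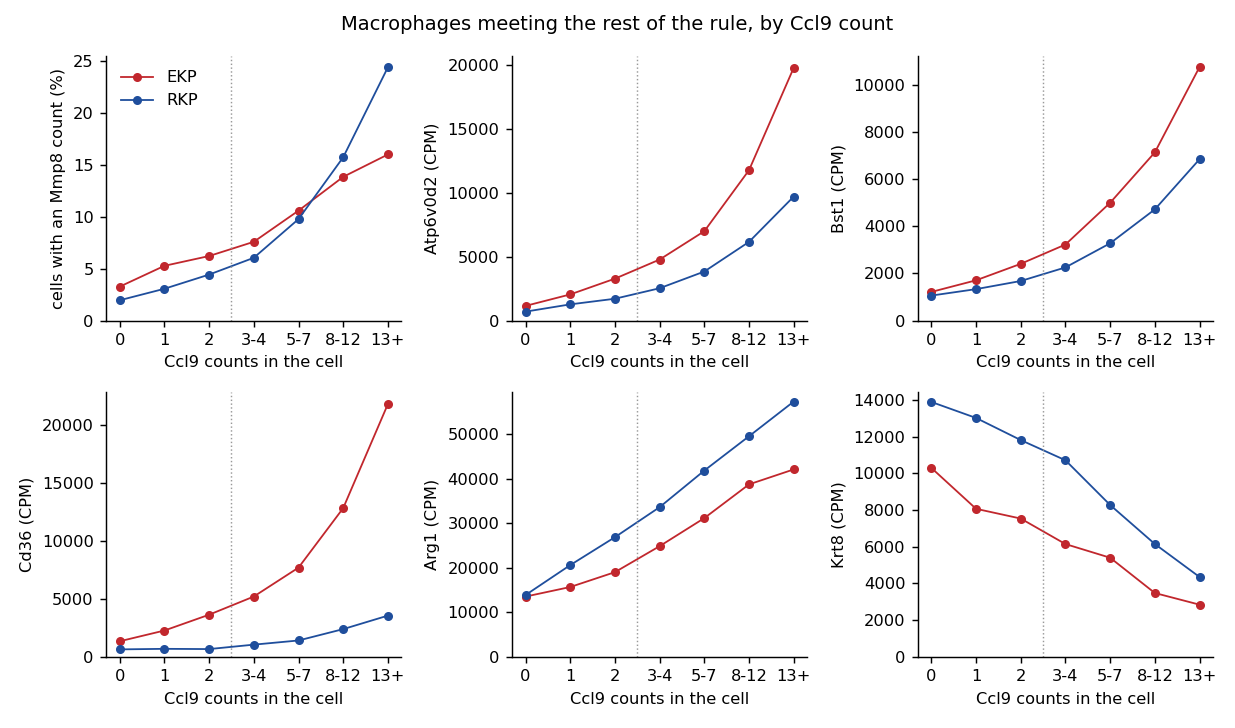
Cells meeting the rule apart from Mmp8 and Ccl9, grouped by their Ccl9 count (horizontal axis), with the percent holding Mmp8 and the levels of Atp6v0d2, Bst1, Cd36, Arg1 and Krt8 in CPM in the EKP and RKP sections; the dotted line marks the limit of 3 counts. Atp6v0d2 rose from 1151 to 19788 CPM in EKP and from 701 to 9708 CPM in RKP, while Krt8 fell.

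The macrophages were compared inside each section with other classes of cells with 40 or more counts. Ccl9-low macrophages had Mmp8 0, Ccl9 0 to 2, a count of Cd86 or Mpeg1 and otherwise the same limits, and numbered 12889 in EKP and 16237 in RKP. Resident-like macrophages had 2 or more of the 5 resident genes and no Mmp8, and numbered 4793 in EKP and 4076 in RKP. Neutrophil-like cells had 2 or more counts of Csf3r plus Cxcr2, and numbered 12161 in EKP and 15001 in RKP. A gene was counted when it differed 2-fold the same way in both sections, which is a rule of size, and genes that chose either class were left out.

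Against Ccl9-low macrophages, 13 of 380 genes were higher (3.42%) and 71 lower (18.7%). The intervals of 12 and 61 of them lay clear of equality in both sections. The macrophage core list, with 8 panel genes, some of them used by the rules, summed to 173586 against 108164 CPM in EKP. In RKP it summed to 186943 against 100678 CPM, and its part in the ratios that follow was not tested. Atp6v0d2 was 6.08-fold higher in EKP (5.73 to 6.44) and 5.66-fold in RKP (5.40 to 5.94), at 11637 against 1915 CPM in EKP and 7215 against 1275 CPM in RKP. Bst1 was 4.47-fold and 4.30-fold higher in EKP and RKP, and Itgam 3.28-fold and 3.20-fold. Cd36, a scavenger receptor for oxidised lipids, was 5.58-fold and 3.01-fold higher. Arg1 was 2.56-fold and 2.64-fold higher. Alox5ap, which presents arachidonic acid to 5-lipoxygenase for leukotriene synthesis, was 2.35-fold and 3.00-fold higher. Cd300lf, a receptor of myeloid cells, was 2.23-fold and 3.01-fold higher, and Emb, a transmembrane protein of the immunoglobulin superfamily, 2.01-fold and 2.84-fold. Ppbp, a chemokine best known from platelets, was 3.24-fold and 2.94-fold higher. Trim29, a tripartite motif protein of epithelia that is also described in alveolar macrophages, was 4.91-fold and 4.79-fold higher. Rsad2 was 6.21-fold and 2.66-fold higher. Cstdc4, of the stefin family of protease inhibitors, and B4galnt2, a glycosyltransferase whose intervals reached equality, complete the 13. With every cell weighted alike, Alox5ap, B4galnt2, Cd300lf, Cstdc4 and Emb fell below 2-fold and 8 genes stayed. With Mmp8 at 2 or more in the macrophages, B4galnt2, Cstdc4 and Ppbp were not counted. Among cells of 150 to 250 counts B4galnt2 and Cd300lf were not counted, and without Krt8 and Epcam B4galnt2, Cstdc4 and Emb were not.

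The genes that were lower included those of other cell types. All 7 kept genes of the T and NK cell list were lower, with a list median log2 ratio of -2.85 in EKP and -2.21 in RKP beside -0.42 and -0.78 over all genes kept. The list summed to 282 CPM in EKP and 791 CPM in RKP in the macrophages, with Cd3d at 0 counts in EKP. Ccl9-low macrophages held far more counts in all, so genes this low could be kept through them alone. That favours calls of lower, so the count of 7 is a description only. Cd3e, of the T cell receptor complex, stood at 65.0 against 468 CPM in EKP and 155 against 876 CPM in RKP. Of 10 endothelial genes 8 were lower, with Pecam1, an adhesion molecule of endothelium, at 1264 against 2722 CPM in EKP and 481 against 2268 CPM in RKP. Dnase1l3, a secreted nuclease of some myeloid cells, stood at 86.7 against 744 CPM in EKP and 61.6 against 383 CPM in RKP. No kept gene of the lists for cell cycle, inflammatory activation, hypoxia or complement was counted in either direction. These lists had 5, 2, 4 and 3 genes on the panel, and Cd86 of the inflammatory list was left out because it chose a class. Over all kept genes 3.42% were higher and 18.7% lower, so lists this short cannot show that a programme was unchanged. Counted per cell without scaling, all 13 higher genes were still counted, and 35 of the 71 lower ones.

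**Figure D3:**
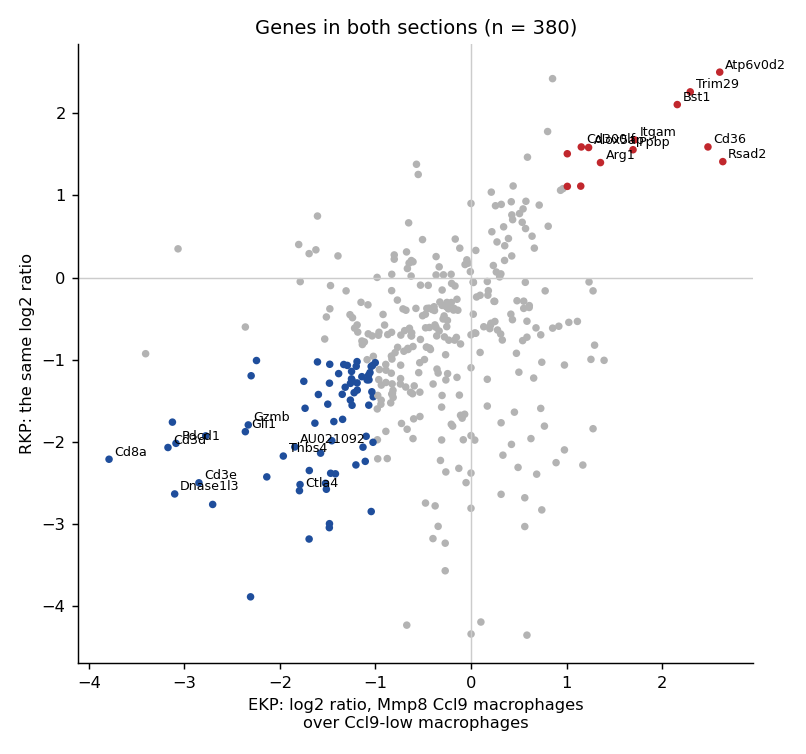
Log2 ratio of Mmp8 Ccl9 macrophages over Ccl9-low macrophages for the 380 kept genes, EKP on the horizontal and RKP on the vertical axis; red genes were 2-fold higher and blue genes 2-fold lower in both sections. The 13 red genes include Atp6v0d2, Trim29 and Bst1, and T cell genes such as Cd8a and Cd3e lie at the low end.

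Against resident-like macrophages, 11 of 289 genes were higher (3.81%) and 44 lower (15.2%). Arg1 was higher by 4.81-fold and 2.17-fold in EKP and RKP, and Atp6v0d2 by 6.11-fold and 3.50-fold. Bst1, Cd36, Cd300lf, Cstdc4 and Trim29 were higher again, and so were Cdh1, the epithelial adhesion molecule E-cadherin, the epithelial surface genes Cldn4 and Gpa33, and Ldhb, a lactate dehydrogenase subunit. Cldn4 and Gpa33 were not counted with Epcam at 0, and Cldn4 also not without Krt8 and Epcam, with Ccl9 at 5 or more or when scaled without the genes of the rules. Cd36 was not counted among cells of 150 to 250 counts or with every cell weighted alike. The intervals of 11 higher and 37 lower genes lay clear of equality in both sections. Ccl12, a ligand of Ccr2, was lower, at 795 against 3748 CPM in EKP and 549 against 2366 CPM in RKP. Mrc1, the mannose receptor, stood at 8697 against 24398 CPM in EKP and 12279.8 against 18572 CPM in RKP. All 7 T and NK cell genes were lower here as well, and in EKP genes this low could again be kept through the resident-like cells alone. Of 5 fibroblast genes 2 were lower, with Dpt, a dermal matrix protein, at 1344 against 6515 CPM in EKP and 115 against 2828 CPM in RKP, and the part of neighbouring fibroblasts was not tested. Counted per cell without scaling, 25 genes were higher and 29 lower.

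Against neutrophil-like cells, 5 of 358 genes were higher (1.4%) and 48 lower (13.4%). The 5 were Arg1 (3.81-fold and 2.19-fold), Atp6v0d2 (4.02-fold and 2.73-fold), Trim29, Selenbp1, a selenium-binding protein, and Muc2, a secreted mucin. Trim29 fell below 2-fold at a minimum of 80 counts and among cells of 150 to 250 counts, and Muc2 was not counted with Epcam at 0 or without Krt8 and Epcam. The intervals of 5 higher and 34 lower genes lay clear of equality in both sections. Neutrophil genes were low in the macrophages, whose rule allowed no count of Csf3r or Cxcr2, while neutrophil-like cells were chosen by these 2 genes. Both limits favour low levels of genes found together with them, so the values that follow are a description only. Stfa2l1, of the stefin family, stood at 195 against 5668 CPM in EKP and 33.8 against 1935 CPM in RKP. Pglyrp1, a granule protein that binds peptidoglycan, stood at 50.6 against 2105 CPM in EKP and 159 against 1458 CPM in RKP. Il1r2, the decoy receptor for interleukin 1, stood at 2073 against 14353 CPM in EKP and 2132 against 15574 CPM in RKP. Mmp9, a gelatinase of neutrophils and macrophages, stood at 10279 against 18339 CPM in EKP and 5184 against 28082 CPM in RKP. Itgam stood at 13804 against 13726 CPM in EKP and 10088 against 13429 CPM in RKP. Neutrophil-like cells were shallow, with median depths of 88.0 and 93.0 counts, and per cell without scaling 49 genes were higher in the macrophages and 16 lower.

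**Figure D4:**
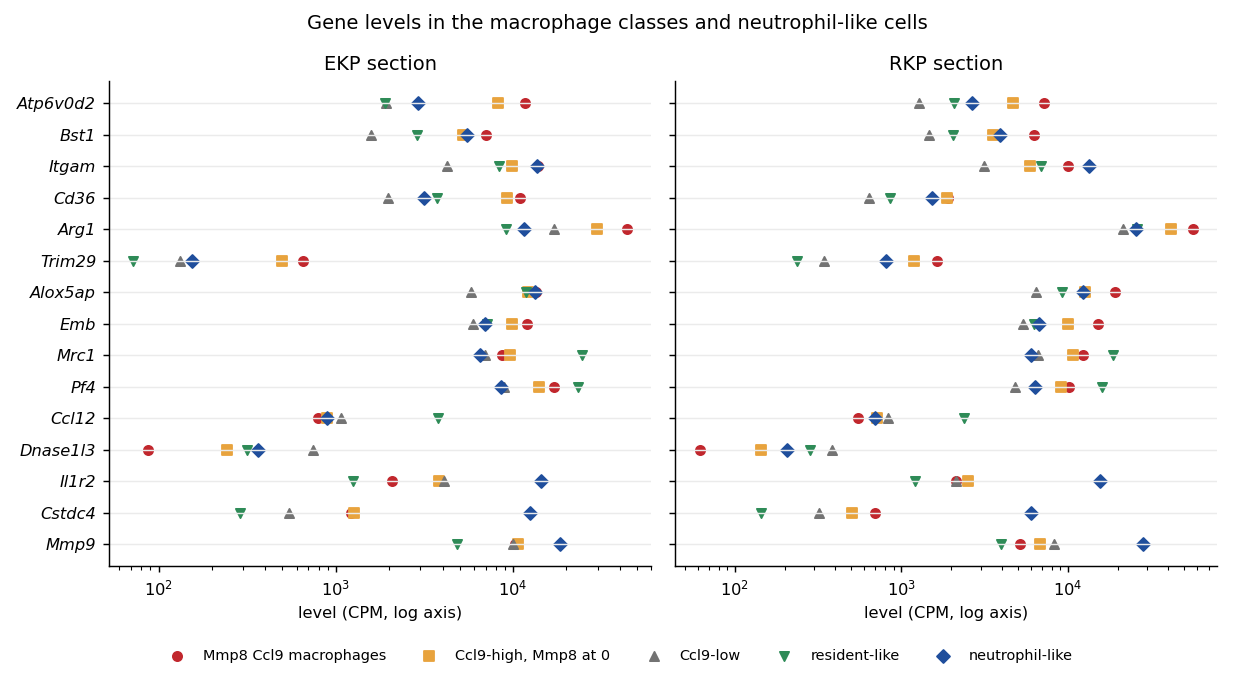
Levels in CPM (log axis) of 15 genes in 5 cell classes of the EKP (left) and RKP (right) sections, each point the summed counts of a class in 1 section. Arg1, Atp6v0d2, Bst1 and Trim29 were highest in the Mmp8 Ccl9 macrophages in both sections, Ccl12 and Mrc1 in resident-like macrophages, and Il1r2, Cstdc4 and Mmp9 in neutrophil-like cells.

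Cells that met the rule but had no Mmp8, called Ccl9-high cells without Mmp8, numbered 6161 in EKP and 17702 in RKP. Against them 0 of 333 genes were 2-fold higher in both sections (0%) and 13 were lower (3.9%). Of the 13, 8 had intervals clear of equality in both sections, and Gli1, Marco, Prf1, Prg2 and Rab3b did not. Atp6v0d2 was 1.41-fold higher in EKP (1.33 to 1.48) and 1.55-fold in RKP (1.5 to 1.61), Itgam 1.39-fold and 1.70-fold, Bst1 1.35-fold and 1.77-fold, and Arg1 1.46-fold and 1.34-fold. The lower genes included Cd3e, Cd3d, Ctla4, Lag3 and Pdcd1, which belong to T cells or their checkpoints. Cd3d had 0 counts in the EKP macrophages. The cells without Mmp8 held more counts in all, so genes this low could be kept through them alone, which favours calls of lower. Median depth of the cells without Mmp8 was 157 counts in EKP and 173 in RKP, below that of the macrophages.

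Ifitm6, an interferon-induced membrane protein, differed from the Ccl9-high cells without Mmp8 more in RKP. It stood at 181 against 138 CPM in EKP and 638 against 161 CPM in RKP, which is 1.31-fold in EKP (0.821 to 2.01) and 3.96-fold in RKP (3.43 to 4.55). The difference between sections was not tested. Over the RKP blocks it ran from 25.8 to 1424 CPM, and 7.72% of the RKP cells held it.

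Rsad2 was gathered in few cells and few blocks of the barcode order. In EKP 70 of the macrophages held it, and 21 cells with 5 or more counts held 80.2% of its counts. Block 1 held 71.0% of the counts and 12.4% of the macrophages, at 16924 CPM, against 105 CPM in the lowest block. In RKP block 6 held 42.8% of the counts at 5568 CPM, and 47 cells held 69.2%. The other 4 classes were highest in the same blocks, with neutrophil-like cells at 3485 CPM in block 1 of EKP and 5885 CPM in block 6 of RKP. Without those blocks the ratio to Ccl9-low macrophages was 2.37 in EKP and 2.44 in RKP.

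**Figure D5:**
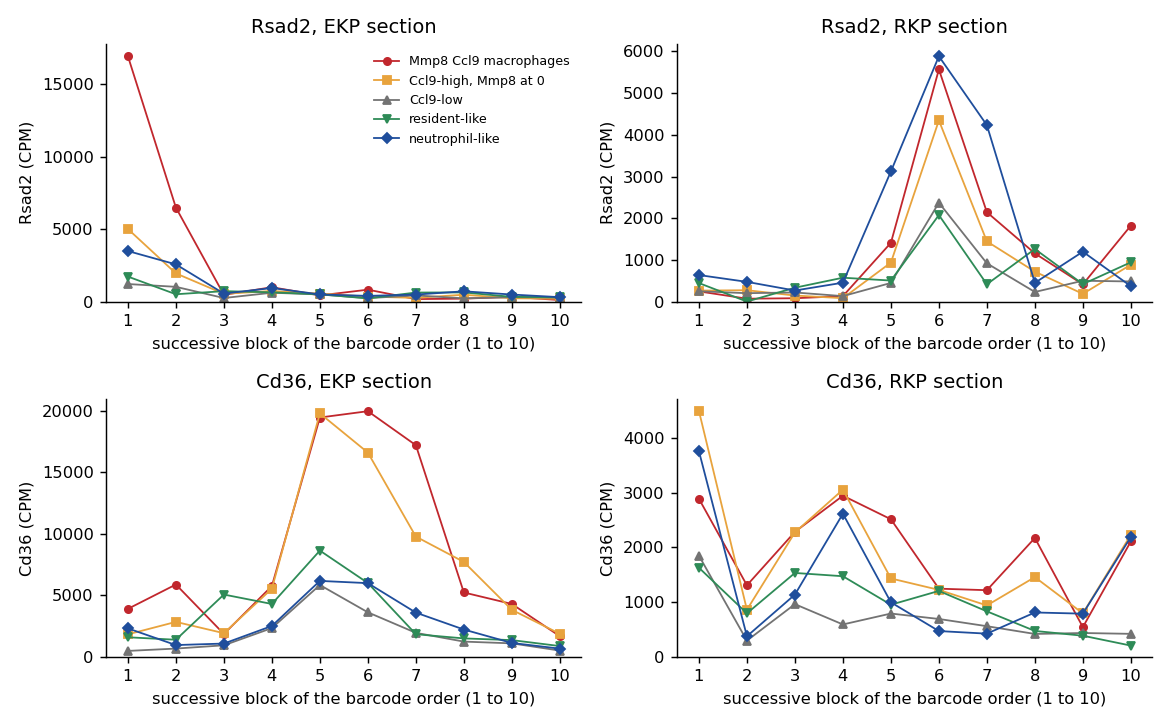
Levels of Rsad2 (top) and Cd36 (bottom) in CPM over 10 successive blocks of the barcode order in EKP (left) and RKP (right), for 5 cell classes. Rsad2 in the Mmp8 Ccl9 macrophages reached 16924 CPM in block 1 of EKP and 5568 CPM in block 6 of RKP, and Cd36 was highest in block 6 of EKP at 19984 CPM.

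Cd36 and Atp6v0d2 were high in the same barcode blocks of EKP. In blocks 5, 6 and 7 Cd36 stood at 19469.5, 19984 and 17218 CPM and Atp6v0d2 at 16965, 18042 and 16709 CPM, whereas both were lowest in block 10, at 1675 and 1675 CPM. The other 4 classes were highest in block 5 for both genes, with Cd36 at 19805 CPM in Ccl9-high cells without Mmp8, 8642 CPM in resident-like macrophages, 6176 CPM in neutrophil-like cells and 5841 CPM in Ccl9-low macrophages. In RKP Atp6v0d2 was more even, from 5184 to 8219 CPM. Over the 20 blocks of both sections, the genes most like Atp6v0d2 by Pearson correlation of log2 CPM were Cd36 (0.74), Sdc1 (0.73), Cd68 (0.71), Bst1 (0.62), Mitf (0.62), Pf4 (0.61), Braf (0.57) and Ccl9 (0.53). Within EKP and RKP alone the values were 0.93 and 0.71 for Cd36, 0.64 and 0.63 for Bst1, 0.78 and 0.60 for Mitf and 0.67 and 0.41 for Pf4. The other 4 were low within RKP, with 0.84 and 0.19 for Sdc1, 0.80 and 0.27 for Cd68, 0.84 and 0.26 for Ccl9 and 0.85 and -0.04 for Braf. These are descriptions, since blocks share a library and a mixture of cells.

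Cd36, Bst1 and Trim29 were also higher in cells with more Atp6v0d2. From macrophages with 0 counts of Atp6v0d2 to those with 6 or more, Cd36 went from 2530.5 to 32209 CPM in EKP and from 691 to 6257 CPM in RKP. Bst1 went from 4876 to 13308 CPM in EKP and from 4069 to 11682 CPM in RKP, and Trim29 from 293 to 1266 CPM in EKP and from 952 to 3303 CPM in RKP. Mmp8 itself went from 7962 to 6736 CPM in EKP and from 7013 to 7482 CPM in RKP. Top2a, a topoisomerase of dividing cells, went from 3317 to 694 CPM in EKP and from 3848 to 1881 CPM in RKP. Col1a1 went from 45379 to 23473 CPM in EKP and from 28199 to 11222 CPM in RKP.

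Counts of 10 genes found in epithelium were set against those of Krt8. In both sections 4 of them, Cdh1, Muc2, Selenbp1 and Trim29, had more counts per Krt8 count in the macrophages than in epithelial cells, and 5, Cldn3, Cldn4, Cldn7, Fxyd3 and Epcam, had fewer, with Epcam held down by the rule. Krt19 stood at 0.903 in EKP (0.798 to 1.02), an interval that holds the 0.871 of epithelial cells. In RKP it had fewer, at 0.528 against 0.898. Cldn4, for example, stood at 0.168 in EKP and 0.219 in RKP in the macrophages and 0.505 in EKP and 0.659 in RKP in epithelial cells. Muc2 and Selenbp1 also had more than epithelial cells in every other class compared, in both sections. Selenbp1 stood at 0.630 in the macrophages of EKP and 0.657 in resident-like macrophages of EKP. Cdh1 and Trim29 are given in full after their values were seen. Cdh1 counts per Krt8 count in epithelial cells were 0.443 in EKP and 0.425 in RKP. The macrophages had 0.694 (0.607 to 0.793) in EKP and 0.741 (0.702 to 0.783) in RKP, Ccl9-high cells without Mmp8 0.432 in EKP and 0.423 in RKP, neutrophil-like cells 0.207 in EKP and 0.446 in RKP, resident-like macrophages 0.319 in EKP and 0.181 in RKP and Ccl9-low macrophages 0.252 in EKP and 0.176 in RKP. For Trim29 the ratios were 0.0176 in EKP and 0.0346 in RKP in epithelial cells, 0.165 in EKP and 0.267 in RKP in the macrophages, 0.0968 in EKP and 0.147 in RKP in Ccl9-high cells without Mmp8 and 0.0262 in EKP and 0.141 in RKP in neutrophil-like cells. In macrophages with no Krt8 and no Epcam, 427 in EKP and 837 in RKP, Trim29 stood at 716 and 1962 CPM, against 120.2 and 384 CPM in Ccl9-low macrophages chosen the same way. Cdh1 stood at 2383 and 4039 CPM there, against 1398 and 2023 CPM.

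Between sections, 45 of 273 kept genes were 2-fold higher in the RKP macrophages (16.5%) and 32 higher in the EKP macrophages (11.7%). The intervals of 40 and 32 of them lay clear of equality. None of the 6 kept macrophage core genes was counted. The RKP over EKP ratio was 1.10 for Ctss, 1.07 for Mpeg1, 1.29 for Arg1, 1.05 for Cd300lf and 0.620 (0.584 to 0.658) for Atp6v0d2.

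Cd36 was higher in EKP, at 10922 CPM in EKP and 1915 CPM in RKP. Over the blocks it ran from 1675 to 19984 CPM in EKP (median 5495) and from 542 to 2945 CPM in RKP (median 2141). In EKP 111 cells with 5 or more counts held 73.9% of its counts. For Ppbp, 17 such EKP cells held 57.4%, and its blocks ran from 387 to 5762 CPM in EKP and from 206.5 to 903 CPM in RKP. Ppbp stood at 1849 CPM in EKP and 497 CPM in RKP, and the gelatinase Mmp2, made chiefly by fibroblasts, at 7823 CPM in EKP and 2615 CPM in RKP. Pf4, a chemokine shared by platelets and macrophages, stood at 17048 CPM in EKP and 10108 CPM in RKP and Mmp9 at 10279 CPM in EKP and 5184 CPM in RKP, both below 2-fold. Cd36 also differed in the other classes, at 1957 CPM in EKP and 636 CPM in RKP in Ccl9-low and 3739.6 CPM in EKP and 853 CPM in RKP in resident-like macrophages.

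Several genes higher in EKP were stromal. Dpt stood at 1344 CPM in EKP and 115 CPM in RKP, Serpina3n, a serine protease inhibitor, at 1199 CPM in EKP and 133 CPM in RKP and Sfrp1, a secreted Wnt antagonist, at 4103 CPM in EKP and 786 CPM in RKP. Of 5 fibroblast genes 3 were higher in EKP, with a median log2 RKP over EKP ratio of -1.14 beside 0.07 over all kept genes. The list summed to 48211 CPM in EKP and 27021 CPM in RKP, and its part in these values was not tested.

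Many genes higher in RKP were epithelial. Cldn2, a claudin of leaky tight junctions, had 211 counts in RKP and 4 in EKP, a ratio of 14.5 (5.59 to 53.8). Muc4, a membrane mucin, was 9.08-fold higher, Tspan8, a tetraspanin of gut epithelium, 7.34-fold, Prom1, a membrane protein of progenitor cells, 6.11-fold and Sox9, a transcription factor of progenitors, 3.81-fold. In all, 6 of 11 epithelial genes were higher in RKP, with a median log2 ratio of 1.02. The epithelial cells of the sections differed too, with Cldn2 at 1087 CPM in EKP and 11474 CPM in RKP and Muc4 at 4793 CPM in EKP and 16398 CPM in RKP. The epithelial list summed to 12822 CPM in the EKP and 20994 CPM in the RKP macrophages, against 219195 and 251101 CPM in epithelial cells, and its part was not tested. Trim29 was 2.53-fold (2.03 to 3.18) higher in the RKP macrophages, and stood at 852 CPM in EKP and 1426 CPM in RKP in epithelial cells.

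Myeloid and lymphoid genes were also among those higher in RKP. Ltc4s, the synthase of leukotriene C4, stood at 339.5 CPM in EKP and 833 CPM in RKP, 2.45-fold (1.81 to 3.39), beside Alox5ap at 13516 CPM in EKP and 19228 CPM in RKP. Ifitm6 was 3.53-fold (2.35 to 5.54) higher. All 6 kept T and NK cell genes were higher in RKP, and the whole list summed to 282 CPM in EKP and 791 CPM in RKP. The RKP macrophages held 502860 counts in all and the EKP macrophages 138433, so genes this low could be kept through RKP alone. That favours calls of higher in RKP, so the count of 6 is a description only. Cd3e stood at 65.0 CPM in EKP and 155 CPM in RKP, beside 468 CPM in EKP and 876 CPM in RKP in Ccl9-low macrophages. The 5 cell cycle genes had a median log2 ratio of 0.77 and none reached 2-fold. Mki67, a marker of cycling cells, stood at 2088 CPM in EKP and 3569.6 CPM in RKP and was found in 17.2% of EKP and 28.0% of RKP cells, and stood at 2876 CPM in EKP and 4631 CPM in RKP in Ccl9-low macrophages.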

How the data were processed

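Values were transcript counts by cell and feature, whole and not normalized, as the authors deposited them in 1 matrix a section. The submitters' processing notes list Seurat 4.4.0 without its use. How cells were segmented, which transcripts were kept and the genome build were not stated in the labels. Segmentation can place transcripts of neighbouring cells in a cell.

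Sections were grouped by their titles. The cells, gene lists and named genes were chosen with earlier results of these data known. Counts were summed per class and section and scaled to 1000000 panel counts (CPM). Genes were kept with a sum of at least 20 that was also above the highest negative control probe in at least 1 class compared. A sum of 0 was replaced by the larger of 3 counts and that probe, and the ratio is then a bound. Differences were counted at 2-fold, without a test. Shares have Clopper-Pearson and ratios exact conditional binomial 95% intervals, which cover counting error only. Named genes were those with 100 CPM or more and the largest ratios, 12 in each direction between sections and 10 in each direction between classes, with members of 28 gene lists; other named genes were chosen after their values were seen. Doublets were not called. The 2-fold ratios and their intervals were tested on simulated summed counts, without clumping of counts in single cells. The cell rule, the shares and the blocks were not tested in that way. Alternatives changed the depth minimum, the limits of the rule, the scaling and the filter. Work used Python 3.11.15, numpy 2.4.6, scipy 1.17.1, pandas 2.3.3 and matplotlib 3.10.9.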

Additional observations from a re-analysis of the deposited data

Results flagged for a closer look

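Ifitm6 went in opposite directions in EKP and RKP when the Mmp8 Ccl9 macrophages were set against resident-like macrophages. Its log2 ratio was -1.08 in EKP, at 181 against 383 CPM, and 1.42 in RKP, at 638 against 239 CPM. With 1 section per line the difference between sections was not tested. In resident-like macrophages of EKP it ran from 57.3 to 847 CPM over the 10 blocks of the barcode order, highest in block 1, with a median of 200 CPM. The EKP Mmp8 Ccl9 macrophages held 25 Ifitm6 counts in 20 of 719 cells. Over their blocks it ran from 0 to 315 CPM, with a median of 182 CPM. In RKP the block medians were 574 CPM in the Mmp8 Ccl9 macrophages and 297 CPM in resident-like macrophages.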

How the results depend on the processing

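No paired analysis was possible because each line had 1 section and no result comes from a test. Depth limits Mmp8 detection, and low genes rest on few counts. Chosen after seeing the data were a window of 150 to 250 counts per cell, cells without Krt8 and Epcam, and the comparison with Ccl9-high cells without Mmp8. Over all alternatives, 105 main values stayed and 22 moved, and of values of single genes 1704 stayed, 502 moved and 2 reversed. A count of genes was taken to stay when its size changed little, whichever genes made it up. For example, 48 genes were lower than in neutrophil-like cells both in the main setting and in the window of 150 to 250 counts, and 25 were shared. With Mmp8 at 2 or more 56 were lower there, and 27 were shared with the main setting. The share ratio was 2.53 at a minimum of 20 counts, 3.35 over all cells, 2.67 with Ccl9 at 5 or more, 1.84 with Epcam at 0 and 2.59 after thinning to 80 counts. With Mmp8 at 2 or more, 28 genes were higher in RKP, and against Ccl9-high cells without Mmp8, 1 was higher and 21 lower. With Ccl9 at 5 or more, 24 were lower there. Without a filter, 151 genes were higher in EKP, 2 higher than in the Ccl9-high cells and 18 higher than in resident-like macrophages. With every cell weighted alike, 8 genes were higher than in Ccl9-low macrophages and 10 than in neutrophil-like cells. Counted per cell without scaling, the lower genes numbered 35 against Ccl9-low, 29 against resident-like, 16 against neutrophil-like and 6 against the Ccl9-high cells, and the higher genes 25 against resident-like and 49 against neutrophil-like cells. At 100 CPM or more, 28 genes were lower than in neutrophil-like cells and 7 than in the Ccl9-high cells. Try10 against neutrophil-like cells in EKP reversed to a log2 ratio of 0.41 in the window of 150 to 250 counts, and Ppargc1a between sections to -1.02 in cells without Krt8 and Epcam. The cause of these moves was not tested.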
